A study of Homo sapiens with 12 samples.

Results

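The genes described here are 40 named genes of glycolysis and of the response to low oxygen, taken by gene symbol from the 29696 genes in the expression table. They comprise 22 glycolytic genes, which are glucose uptake, the glycolytic enzymes and regulators of glycolytic flux, and 18 hypoxia genes, which are hypoxia-inducible factor (HIF) subunits, the prolyl hydroxylases EGLN1 and EGLN3, and HIF target genes. All 40 symbols were found. The cells were A375, a human melanoma line grown in culture. The shALKBH5 group carried a short hairpin RNA against ALKBH5 (genotype ALKBH5 knockdown), and the shCtrl group carried a control hairpin (genotype wild type). Each group had 3 input RNA libraries, and the same number of libraries precipitated with an antibody against N6-methyladenosine (m6A). The study lists several hairpins against ALKBH5 and does not say which of them these cells carried.

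Glycolysis splits glucose into pyruvate in the cytoplasm, and lactate dehydrogenase turns pyruvate into lactate when it does not enter the mitochondria. At normal oxygen, prolyl hydroxylases mark the HIF alpha subunits for VHL-dependent degradation, and at low oxygen the alpha subunits pair with ARNT and raise transcription of most glycolytic genes and of genes for vessel growth, pH control and mitophagy. Melanoma cells are known for high glycolysis, and ALKBH5 is an oxygen-responsive enzyme that removes m6A, a methyl mark on mRNA, so the comparison asks how these transcripts and their m6A differ when ALKBH5 is reduced.

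Levels are in FPKM, fragments scaled to transcript length and to the mapped fragments of the library by the authors. No read counts came with the values, so the depth of each library is unknown. The libraries summed to 221946, 223231 and 222690 FPKM in shALKBH5 1, 2 and 3, and to 218966, 212760 and 217498 FPKM in shCtrl 1, 2 and 3. Nothing in the labels says that the libraries of a group came from separate cultures, so the p-values measure only the spread between these libraries. Fold changes are shALKBH5 over shCtrl on the scale of log2(FPKM + 0.1), which understates the change of genes at low levels. A gene was tested at a mean of at least 0.5 FPKM and is said to have risen or fallen at a limma p-value under 0.05 after Benjamini-Hochberg adjustment over the 12985 genes tested.

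The targeted gene was low in the knockdown. ALKBH5 (ENSG00000091542) had 3.39, 3.92 and 3.12 FPKM in the shALKBH5 libraries and 19.3, 17.8 and 17.6 FPKM in the shCtrl libraries. Each knockdown library was far below each control library. The log2 fold change was -2.36 (SE 0.089, adjusted p 1.28e-06 in limma), and the exact two-sided permutation p over the libraries was 0.1, the smallest that 3 against 3 libraries can give. That exact value holds for each gene below whose groups do not overlap.

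The melanoma label was checked against 12 marker genes of melanocytes and melanoma, of which 11 were listed. Their summed level was 394, 394 and 395 FPKM in the shALKBH5 libraries and 439, 410 and 410 FPKM in the shCtrl libraries. The most abundant was SOX10, the transcription factor of the neural crest lineage, at 179 to 192 FPKM. The pigment gene MLANA was not listed. PMEL, TYRP1, DCT and TYR, also pigment genes, were all below the filter, and DCT stayed under 0.036 FPKM in every library. Of the 7 markers tested, 3 fell and 3 rose, where 26.2% of all genes tested fell and 34.7% rose. NGFR, a receptor of neural crest-like melanoma cells, fell by 2.59 on the log2 scale, and S100B, a calcium-binding melanoma marker, rose by 1.32. Among markers of other cells, the endothelial set (3 of 3 listed, none tested) summed to at most 0.388 FPKM, with VWF highest and CDH5 and PECAM1 near 0. The keratinocyte set (2 of 4 listed) summed to 11.5, 11.2 and 10.7 against 9.53, 8.90 and 8.97 FPKM, with KRT10 highest. KRT14, the other listed gene, went the other way, at 0.242, 0.526 and 0.338 against 1.07, 0.830 and 0.983 FPKM. CD68, a lysosomal protein of macrophages and the only listed gene of the 4 immune markers, was at 38.1, 41.9 and 41.3 FPKM in the shALKBH5 libraries and 16.5, 17.2 and 14.8 FPKM in the controls. The fibroblast set (4 of 4 listed) summed to 3.54, 3.46 and 3.76 against 8.57, 7.59 and 7.66 FPKM, with PDGFRB, a growth factor receptor, highest and COL1A2 near 0. The lower sum was that of PDGFRB, at 2.66, 2.64 and 2.88 against 7.85, 6.89 and 7.02 FPKM, while DCN and COL1A1, genes of the extracellular matrix, had higher means in the knockdown. The part of these markers in the results below was not tested.

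Of the 40 genes, 37 passed the filter. Of these, 21 fell and 10 rose, where 26.2% of all genes tested fell and 34.7% rose. At least 2-fold changes were seen in 3 genes that fell (SLC2A1, VEGFA and NDRG1) and 2 that rose (ALDOC and PFKFB4), against 6.29% and 5.41% of all genes tested. The groups did not overlap in 31 of the 37, against 67% of all genes. PDK1, among these 31, passed the filter only through the knockdown. The median log2 fold change was -0.20 over the 22 glycolytic genes and -0.26 over the 15 hypoxia genes tested, and 0.09 over all genes. Dividing each library by its median ratio to the mean library moved these medians to -0.28, -0.33 and 0.01 and turned no sign. The hypoxia median was nearer 0 without shALKBH5 2 (-0.15), without shCtrl 1 (-0.13), with no filter (-0.14) and with a pseudocount of 1 (-0.17). The glycolytic set held 15 genes that fell and 5 that rose. The first count went to 12 with no filter, to 11 without the trend and to between 11 and 14 with 1 library left out, and the second ran from 4 to 6. The hypoxia set held 6 that fell and 5 that rose, and the latter count went to 3 without shALKBH5 2, without shCtrl 1, with no filter and after median ratio scaling.

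**Figure D1:**
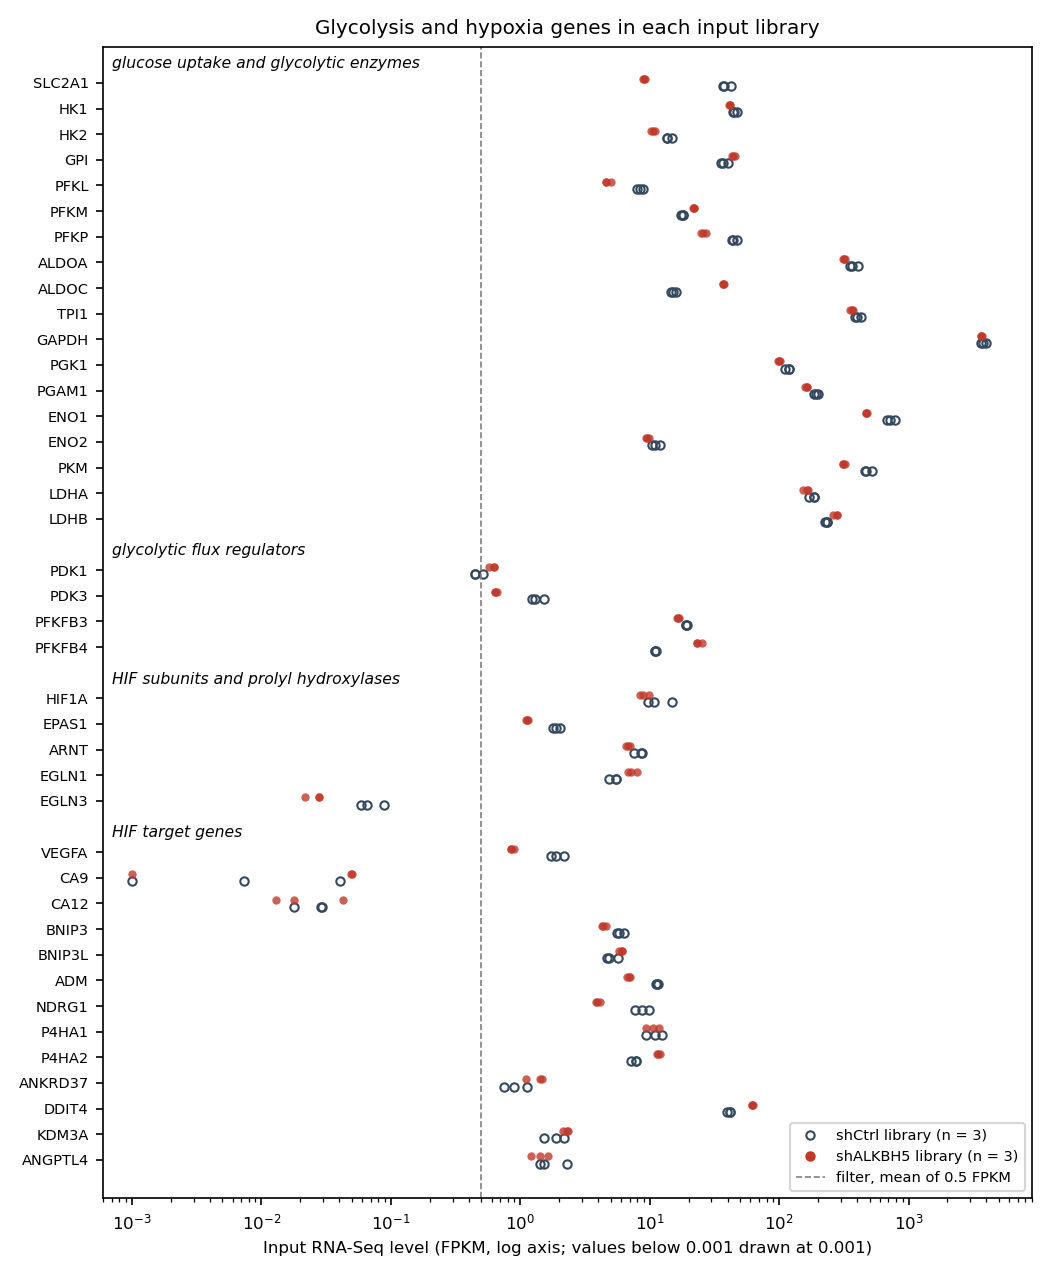
Level of each of the 40 genes in each of the 6 input libraries, in FPKM on a log axis, with shCtrl as open and shALKBH5 as filled circles and the filter of 0.5 FPKM as a dashed line. GAPDH lies highest at a mean of 3722 FPKM, and EGLN3, CA12 and CA9 lie left of the filter.

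**Figure D2:**
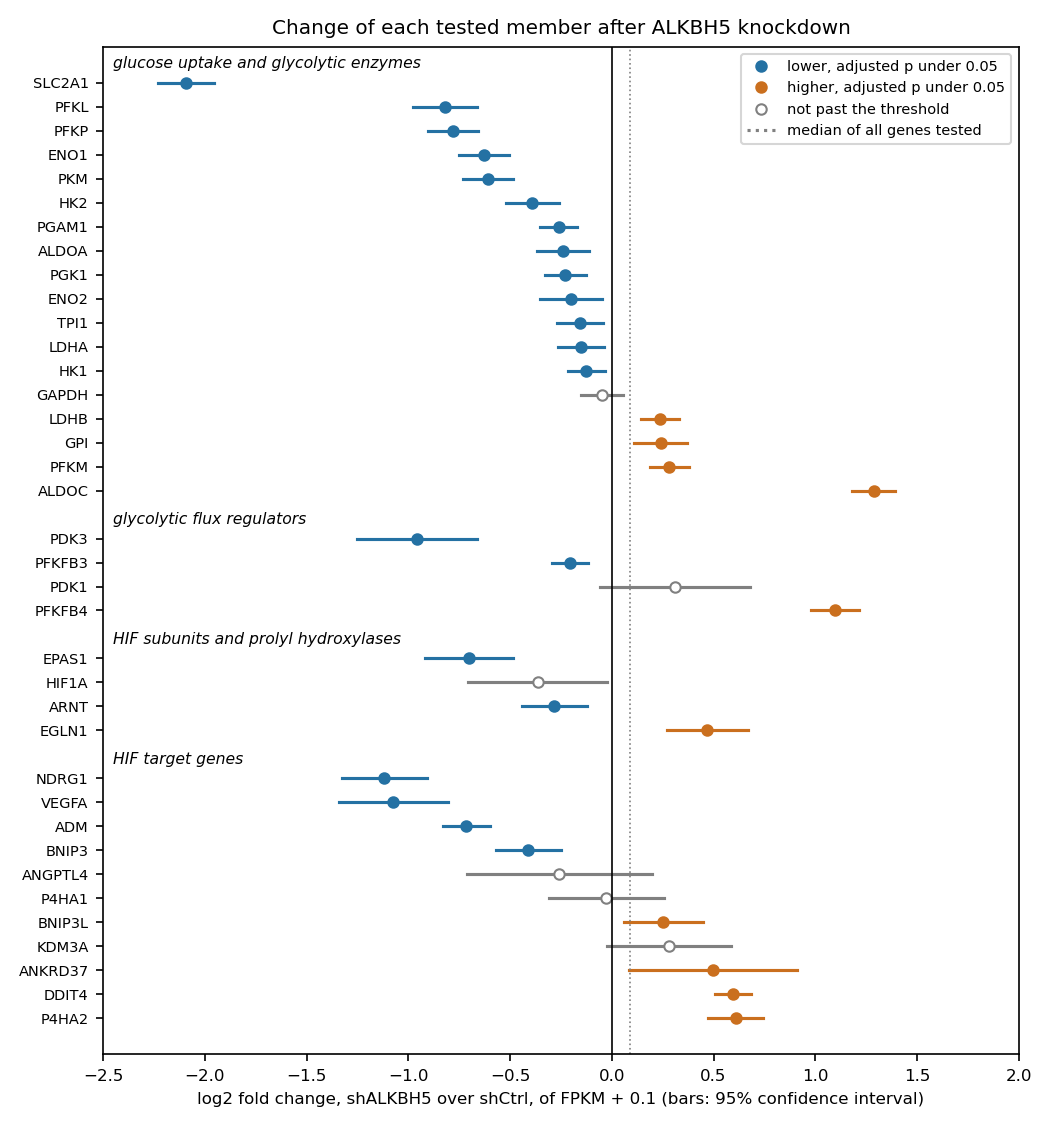
Log2 fold change of FPKM + 0.1, shALKBH5 over shCtrl, with its 95% confidence interval, for the 37 genes tested, ordered within each role. SLC2A1 lies farthest left at -2.09 and ALDOC farthest right at 1.29, and the dotted line marks the median of all genes tested.

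Glucose enters the cell through hexose transporters, of which SLC2A1 (GLUT1) is the basal carrier. SLC2A1 (ENSG00000117394) had 9.23, 8.97 and 8.93 FPKM in the shALKBH5 libraries and 42.3, 36.8 and 37.8 FPKM in the shCtrl libraries. Every knockdown library was below every control library, and the spread within a group was small beside the gap. The log2 fold change was -2.09 (SE 0.059, adjusted p 5.23e-07), the largest fall among the 40 genes. The transporters listed, 8 of 9 sought, summed to 33.9 ± 0.115 FPKM in the knockdown against 59.1 ± 3.33 FPKM (SD, n = 3), which is 57.3% of the control. The share of SLC2A1 in that sum was 26.7 ± 0.406% (SD, n = 3) against 65.9 ± 1.47% (SD, n = 3). SLC2A3 (GLUT3), a high-affinity carrier named after its values were seen, made up 46.2% against 23.5%, and SLC2A6, a lysosomal transporter, 21.2% against 8.44%. The level of SLC2A3 itself differed much less than its share, at 15.7 ± 0.635 FPKM against 13.8 ± 0.778 FPKM (SD, n = 3). SLC2A1 was thus the most abundant transporter in every control library and SLC2A3 in every knockdown library.

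Hexokinase traps glucose as glucose 6-phosphate. HK2, the isozyme induced in many tumours, had 11.0, 10.2 and 10.6 FPKM in the shALKBH5 libraries and 13.5, 14.8 and 13.6 FPKM in the controls. The groups did not overlap, and the gene fell by 0.39 on the log2 scale (adjusted p 0.000661). HK1, the more abundant isozyme, fell by 0.13 at an adjusted p of 0.0243. Leaving out any of the shALKBH5 libraries ended that call, with adjusted p-values of 0.0795, 0.0822 and 0.056 without 1, 2 and 3 and a range of 0.0109 to 0.0822 over 13 alternative settings. The replicate block (adjusted p 0.0668) and a fit without the trend (adjusted p 0.0756) ended it as well. Its fold change was -0.20 after median ratio scaling. HKDC1, a further hexokinase from the list of other transporters and isozymes, had 3.29, 3.33 and 3.23 FPKM in shALKBH5 against 0.794, 0.667 and 0.915 FPKM in shCtrl cells. It rose by 1.93 on the log2 scale (adjusted p 1.01e-05), or by 1.26 with a pseudocount of 1. The 4 hexokinases listed together stood at 92.2% of the control, slightly below it.

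GPI, which converts glucose 6-phosphate to fructose 6-phosphate, was at 43.1, 44.0 and 45.7 FPKM against 40.3, 35.4 and 36.8 FPKM. All knockdown libraries were above all controls, and the gene rose by 0.24 (adjusted p 0.00732). After median ratio scaling the change was 0.17 and no longer passed (adjusted p 0.0772, within 0.0013 to 0.0772 over the alternatives).

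Phosphofructokinase catalyses the committed step, and its isozymes moved in opposite directions. The platelet-type PFKP had 24.7, 26.0 and 27.4 FPKM in shALKBH5 and 46.9, 43.3 and 44.3 FPKM in shCtrl libraries. The liver-type PFKL had 4.60, 4.62 and 5.05 FPKM against 8.95, 8.01 and 8.46 FPKM. The muscle-type PFKM had 21.9, 21.9 and 21.6 FPKM against 18.2, 17.3 and 18.1 FPKM. PFKP and PFKL were lower in every knockdown library and PFKM was higher in every one. Their log2 fold changes were -0.78 (adjusted p 1.56e-05), -0.82 (adjusted p 3.93e-05) and 0.28 (adjusted p 0.000647), with each sign kept after median ratio scaling. The summed level of the step was 52.6 ± 1.44 FPKM (SD, n = 3) against 71.2 ± 2.74 FPKM (SD, n = 3). PFKM made up 41.5 ± 1.34% of it in the knockdown and 25.1 ± 0.527% in the control (SD, n = 3).

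Aldolase splits fructose 1,6-bisphosphate, and here too the isozymes parted. ALDOC (ENSG00000109107), the brain-type isozyme and a HIF target, had 36.8, 37.1 and 37.6 FPKM in the shALKBH5 libraries and 15.9, 14.5 and 15.1 FPKM in the shCtrl libraries. The groups were far apart and each was tight. The gene rose by 1.29 (SE 0.045, adjusted p 1.01e-06), the largest rise among the 40 genes. ALDOA, the main isozyme, had 317, 309 and 323 FPKM against 405, 351 and 369 FPKM. It fell by 0.24 (adjusted p 0.0066) with no overlap. The share of ALDOC in the aldolase sum was 10.5 ± 0.169% against 3.89 ± 0.106% (SD, n = 3), and the sum stood at 90.7% of the control.

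The enzymes of the later reactions, from triose phosphates to pyruvate, include GAPDH, ENO1, PKM and TPI1, whose transcripts were the most abundant of the set. GAPDH, which oxidises glyceraldehyde 3-phosphate, had 3637, 3625 and 3712 FPKM in the shALKBH5 libraries and 3985, 3611 and 3765 FPKM in the controls. The groups overlapped, and the log2 fold change of -0.05 (95% confidence interval -0.15 to 0.05, adjusted p 0.367) did not pass. It ran from -0.125 to -0.012 over the alternatives and passed in none of them (adjusted p 0.061 to 0.788). GAPDH is also the reference gene of the study's PCR, and a GAPDH antibody is listed for its protein blots. Enolase ENO1, which makes phosphoenolpyruvate, had 469, 467 and 478 FPKM against 786, 685 and 719 FPKM. Pyruvate kinase PKM, which makes pyruvate and ATP, had 313, 311 and 324 FPKM against 522, 459 and 468 FPKM. For both enzymes every knockdown library was below every control, with log2 fold changes of -0.63 (adjusted p 4.43e-05) and -0.61 (adjusted p 5.45e-05). The kinase PGK1, which makes ATP, and the mutase PGAM1, which shifts the phosphate, fell by 0.23 and 0.26 with no overlap. TPI1, the triose isomerase, and ENO2, the neuronal enolase, fell by 0.16 (adjusted p 0.024) and 0.20 (adjusted p 0.0308), and these calls ended under several alternatives. TPI1 went to an adjusted p of 0.0686 without shALKBH5 1, 0.086 without shALKBH5 2, 0.0852 with no filter and 0.0709 without the trend (0.00901 to 0.086 over the alternatives). ENO2 went to 0.0815 without shALKBH5 1, 0.0942 without shALKBH5 2, 0.0522 without shCtrl 1, 0.0651 without shCtrl 3, 0.065 with no filter and 0.053 without the trend (adjusted p, 0.0137 to 0.0942 over the alternatives).

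Lactate dehydrogenase interconverts pyruvate and lactate. LDHB, the heart-type subunit, had 278, 282 and 262 FPKM in the shALKBH5 libraries and 228, 234 and 235 FPKM in the controls. It rose by 0.24 (adjusted p 0.00144) without overlap. LDHA, the muscle-type subunit and a HIF target, had 163, 169 and 154 FPKM against 171, 185 and 185 FPKM, and fell by 0.15 at an adjusted p of 0.0286. That call ended without shALKBH5 1, shALKBH5 3, shCtrl 2 or shCtrl 3, at adjusted p-values of 0.0694, 0.101, 0.0666 and 0.0931, and with no filter (0.0809), without the trend (0.0792) and with the replicate block (0.0519) (0.00548 to 0.101 over the alternatives). LDHA made up 37.1 ± 0.212% of the summed level against 43.5 ± 0.693% (SD, n = 3). The sum itself overlapped between the groups, at 437 ± 17.9 FPKM against 413 ± 11.6 FPKM (SD, n = 3).

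**Figure D3:**
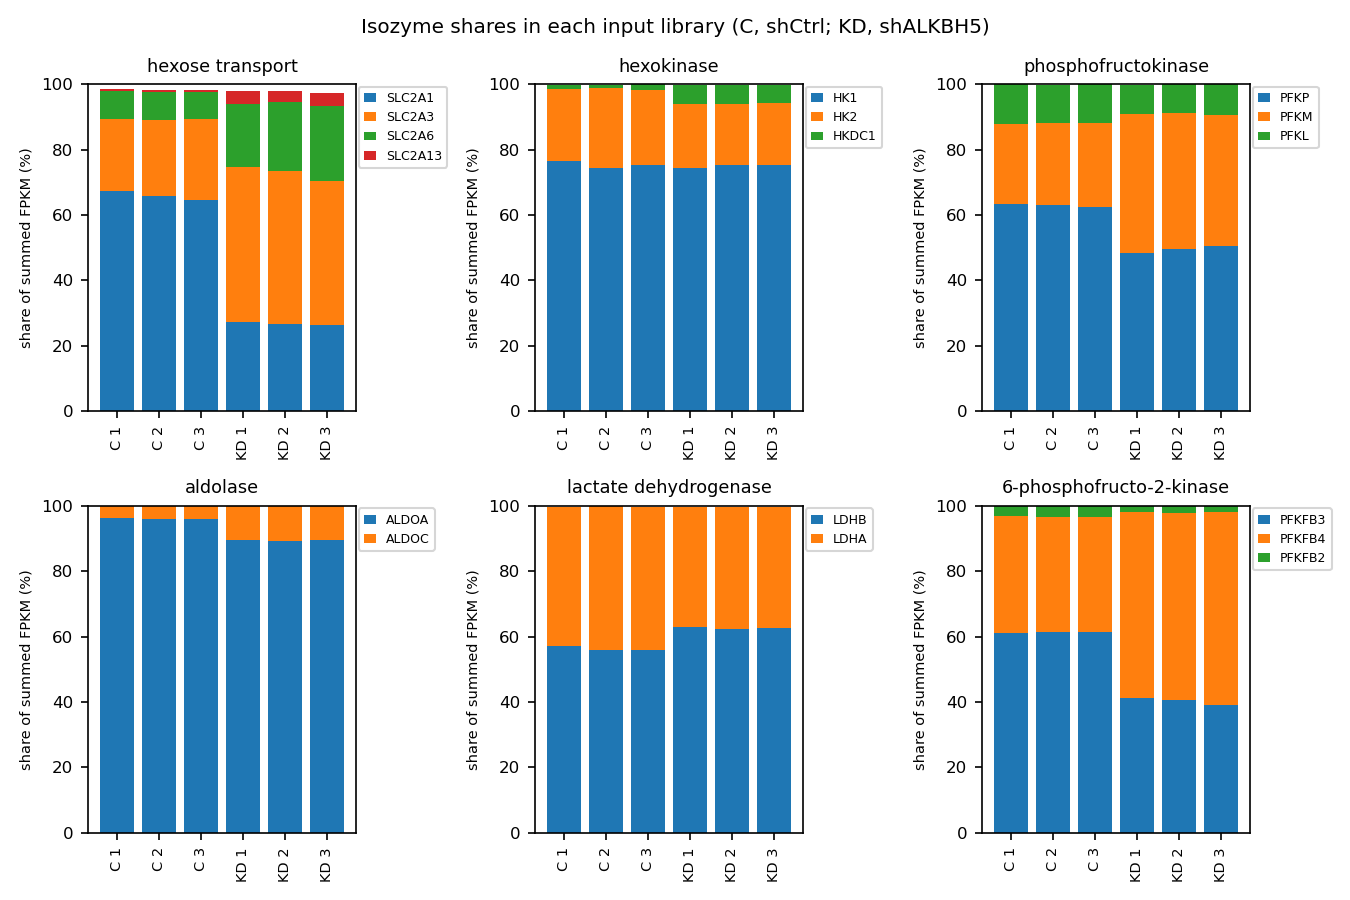
Share of each isozyme in the summed FPKM of its step, in percent, for 6 steps in each input library (C, shCtrl, and KD, shALKBH5), with isozymes under a mean of 1% left out. SLC2A1 takes 64.6 to 67.5% of hexose transport in the shCtrl and 26.4 to 27.2% in the shALKBH5 libraries, and PFKFB4 takes 35.3 to 35.8% and 57.0 to 59.1% of its step.

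Flux regulators set the pace of glycolysis without being steps of it. PFKFB4 (ENSG00000114268), which makes and degrades fructose 2,6-bisphosphate, the activator of phosphofructokinase, had 23.1, 23.2 and 25.3 FPKM in the shALKBH5 libraries and 11.3, 11.0 and 11.0 FPKM in the controls. All knockdown libraries were well above all controls, and the gene rose by 1.10 (SE 0.051, adjusted p 2.97e-06). PFKFB3, the isozyme with the highest ratio of kinase to phosphatase activity, had 16.7, 16.3 and 16.7 FPKM against 19.3, 19.2 and 19.0 FPKM and fell by 0.21 (adjusted p 0.00258). The 4 isozymes of this enzyme summed to 41.2 ± 1.41 FPKM against 31.2 ± 0.286 FPKM (SD, n = 3), and PFKFB4 replaced PFKFB3 as the largest share. UCN2, a gene on the same strand named after its values were seen, overlaps the 5' end of PFKFB4 and had 29.6, 28.4 and 30.0 FPKM against 20.8, 18.8 and 19.2 FPKM. Its part in the PFKFB4 level was not tested.

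Pyruvate dehydrogenase kinases inhibit the pyruvate dehydrogenase complex, which uses pyruvate within the mitochondria. PDK3 had 0.643, 0.662 and 0.638 FPKM in the shALKBH5 libraries and 1.23, 1.53 and 1.31 FPKM in the controls. Its groups were separate and it fell by 0.96 (adjusted p 0.000444), or by 0.51 with a pseudocount of 1. PDK1, the kinase best known as a HIF target, had 0.626, 0.626 and 0.570 FPKM against 0.444, 0.518 and 0.451 FPKM. Its knockdown values were all above the controls, but the change of 0.31 did not pass at an adjusted p of 0.124. It passed when limma was run without a trend (adjusted p 0.0125, within 0.0125 to 0.255 over the alternatives), and was 0.13 with a pseudocount of 1. With a control mean of 0.471 FPKM, PDK1 passed the filter only through the knockdown, so its values do not bear on the direction of the set. The 4 kinases together had 8.44 ± 0.473 FPKM against 8.43 ± 0.124 FPKM (SD, n = 3), with overlap.

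Among the HIF subunits, HIF1A, the alpha subunit that oxygen controls, had 9.81, 8.44 and 8.80 FPKM in the shALKBH5 libraries and 10.8, 14.8 and 9.79 FPKM in the controls. The ranges met at shALKBH5 1 and shCtrl 3, and shCtrl 2 was the highest. The log2 fold change of -0.36 did not pass (adjusted p 0.063). It passed without shCtrl 3 at -0.49 (adjusted p 0.0242) and after median ratio scaling at -0.44 (adjusted p 0.0217), within 0.0217 to 0.165 over the alternatives. Without shCtrl 2, the highest library, it was smaller, at -0.19 (adjusted p 0.0879). EPAS1 (HIF2 alpha) had 1.13, 1.11 and 1.16 FPKM against 2.03, 1.88 and 1.80 FPKM. It fell by 0.70 without overlap (adjusted p 0.000436), or by 0.45 with a pseudocount of 1. ARNT, the beta subunit, fell by 0.28 without overlap (adjusted p 0.00858). HIF alpha is controlled mostly as protein, which was not measured here.

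The prolyl hydroxylase EGLN1 (PHD2), the main oxygen sensor for HIF1A, had 6.81, 8.04 and 7.22 FPKM in the shALKBH5 libraries and 4.81, 5.52 and 5.52 FPKM in the controls. All knockdown values were above all controls, and EGLN1 rose by 0.47 (adjusted p 0.00224). EGLN3 (PHD3), a hydroxylase that HIF itself induces, stayed between 0.0218 and 0.0884 FPKM and was not tested.

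Of the 13 HIF target genes, 11 were tested, of which 4 fell and 4 rose. Among all genes tested, 26.2% fell and 34.7% rose. VEGFA (ENSG00000112715), the vessel growth factor, had 0.851, 0.848 and 0.892 FPKM in the shALKBH5 libraries and 1.73, 2.19 and 1.90 FPKM in the controls. NDRG1 (ENSG00000104419), a stress-response protein, had 3.86, 3.95 and 4.11 FPKM against 9.83, 8.74 and 7.76 FPKM. ADM (ENSG00000148926), which encodes the vasodilator adrenomedullin, had 7.07, 6.72 and 6.94 FPKM against 11.7, 11.4 and 11.1 FPKM. In all these genes each knockdown library was below each control library. Their log2 fold changes were -1.07 (SE 0.114, adjusted p 0.000149), -1.12 (SE 0.089, adjusted p 3.6e-05) and -0.71 (SE 0.048, adjusted p 1.66e-05). For VEGFA the change was -0.65 with a pseudocount of 1. BNIP3, a mitophagy receptor, fell by 0.41 with no overlap (adjusted p 0.00145).

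Other targets rose. DDIT4 (REDD1, ENSG00000168209), which restrains mTORC1 and was the most abundant hypoxia gene, had 62.4, 61.9 and 61.9 FPKM in the shALKBH5 libraries and 41.6, 39.6 and 42.0 FPKM in the controls. P4HA2, a collagen prolyl hydroxylase subunit, had 11.3, 11.6 and 12.1 FPKM against 7.90, 7.17 and 7.81 FPKM. For both the groups were clearly apart, with rises of 0.59 (adjusted p 1.17e-05) and 0.61 (adjusted p 7.8e-05). PDLIM4, named after its values were seen, lies within P4HA2 on the opposite strand and had 44.7, 45.2 and 48.3 FPKM against 25.7, 26.4 and 26.5 FPKM. Whether reads were counted by strand is not given in the sources used here, and the part of PDLIM4 was not tested. P4HA1, the other collagen hydroxylase subunit, had 10.7, 11.8 and 9.42 FPKM against 9.31, 12.4 and 10.9 FPKM. Its groups overlapped widely, and its change of -0.03 (adjusted p 0.857) was 0.06 without shALKBH5 3 and 0.07 without shCtrl 2.

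The remaining targets gave weaker or no calls. BNIP3L, a further mitophagy receptor, rose by 0.25 (adjusted p 0.0313), and the call ended without shALKBH5 1, shALKBH5 2, shCtrl 1 or shCtrl 3, at adjusted p-values of 0.0919, 0.0855, 0.0801 and 0.104, and with no filter (0.071) or after median ratio scaling (0.0748) (0.00389 to 0.104 over the alternatives). ANKRD37, an ankyrin repeat protein, rose by 0.50 (adjusted p 0.041) although its groups overlapped, and by 0.28 with a pseudocount of 1. Its call ended without shALKBH5 2, shALKBH5 3, shCtrl 1 or shCtrl 2, at adjusted p-values of 0.113, 0.126, 0.0912 and 0.101, and with no filter (0.102) or after median ratio scaling (0.0729) (0.0193 to 0.126 over the alternatives). UFSP2, named after its values were seen, overlaps ANKRD37 on the opposite strand and had 6.14, 4.97 and 5.58 FPKM against 3.07, 3.59 and 3.64 FPKM. Its part in the ANKRD37 level was not tested. KDM3A, a histone demethylase, changed by 0.28 (adjusted p 0.0998), and passed at 0.40 without shCtrl 2 (adjusted p 0.0217, within 0.0217 to 0.236 over the alternatives). Without shCtrl 1 its change was 0.15. ANGPTL4, an inhibitor of lipoprotein lipase, changed by -0.26 with overlap (adjusted p 0.282), and by -0.06 without shCtrl 1, -0.15 without shALKBH5 2 and -0.17 with a pseudocount of 1. The carbonic anhydrases CA9 and CA12, which are classical markers of hypoxia, were at or near 0, with at most 0.0505 and 0.0427 FPKM in any library.

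HIF binds DNA at a short core, RCGTG, where R is A or G. The letters ACGTG and GCGTG were sought on both strands in the 250 bases before each start site that RefSeq lists on GRCh38.p14. A palindromic CACGTG holds ACGTG on both strands and counts as 2 matches. Of the 40 genes, 37 had an entry, with 61 start sites, and VEGFA, BNIP3L and NDRG1 had none. ACGTG was present at 24 of the 61 start sites (39.3%), against 18.5% of the 35116 start sites of all genes. GCGTG was present at 34.4%, against 32.2%. By gene, ACGTG was present in 10 of 19 that fell, 6 of 9 that rose and 4 of 6 tested genes with no call, so genes with and without it were found in each class. A match describes letters and does not show binding.

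VEGFA and NDRG1, which fell by more than PDK3, had no start site to print from. The upstream sequences below belong to the genes that rose and fell most among those with a single start site. They are ALDOC (chr17:28576949-28577145, minus strand) and DDIT4 (chr10:72273674-72273923, plus strand), which rose, and SLC2A1 (chr1:42958894-42959118, minus strand) and PDK3 (chrX:24465036-24465269, plus strand), which fell. Sequences are RefSeq's, GRCh38.p14, 5' to 3' on the strand of the gene, with bases inside the gene as the authors list it left off, and PFKFB4 and P4HA2 were passed over because their RefSeq starts lie inside that gene. Capitals mark ACGTG or GCGTG on either strand.
ALDOC: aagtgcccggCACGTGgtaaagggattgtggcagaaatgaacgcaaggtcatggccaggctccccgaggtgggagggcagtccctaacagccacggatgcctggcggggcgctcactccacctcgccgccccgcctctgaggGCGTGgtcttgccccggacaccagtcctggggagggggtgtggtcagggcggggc
DDIT4: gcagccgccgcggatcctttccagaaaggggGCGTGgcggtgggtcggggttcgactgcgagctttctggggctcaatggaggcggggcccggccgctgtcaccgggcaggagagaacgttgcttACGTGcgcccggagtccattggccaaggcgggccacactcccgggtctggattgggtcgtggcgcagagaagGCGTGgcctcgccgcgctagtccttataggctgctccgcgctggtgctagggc
SLC2A1: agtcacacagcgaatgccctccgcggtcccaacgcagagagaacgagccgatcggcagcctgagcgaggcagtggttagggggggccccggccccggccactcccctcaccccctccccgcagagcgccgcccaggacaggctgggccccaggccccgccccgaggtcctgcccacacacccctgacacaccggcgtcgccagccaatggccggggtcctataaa
PDK3: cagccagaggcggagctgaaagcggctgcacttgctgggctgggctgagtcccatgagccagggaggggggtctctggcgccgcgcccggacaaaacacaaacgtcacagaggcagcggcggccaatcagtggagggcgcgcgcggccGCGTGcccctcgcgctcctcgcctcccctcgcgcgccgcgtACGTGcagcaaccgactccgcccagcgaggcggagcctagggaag
ALDOC shows the palindrome CACGTG from 240 bases before its start and a GCGTG from 108 bases before it. DDIT4 shows 1 ACGTG and 2 GCGTG, and PDK3 shows 1 of each. SLC2A1, the gene that fell most, shows neither in the bases printed.

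For m6A, the authors made 1 peak list for each group. The lists hold no replicates, so differences between them carry no test. Each list held 67 peaks in 28 of the 40 genes. The glycolytic genes had 39 peaks in 17 genes in the shALKBH5 list and 29 in 14 genes in the shCtrl list, while the hypoxia genes had 28 in 11 genes and 38 in 14 genes. Of the 37 genes tested for expression, 27 had a shALKBH5 peak and 26 a shCtrl peak, against 86.0% and 85.5% of all genes tested. Of the shALKBH5 peaks 35 lay in the 3'UTR and 24 in the 5'UTR, and of the shCtrl peaks 40 and 18. In percent, the 3'UTR held 52.2% and 59.7% of these peaks, against 45.5% and 46.2% of the peaks of all genes. The 5'UTR held 35.8% and 26.9%, against 16.6% and 17.0%. All peaks of the 40 genes lay in the 3'UTR, 5'UTR, coding exons or introns. Of the 46039 shALKBH5 peaks of all genes, 20935, 7639, 6134 and 2225 lay in these regions in that order, and the rest lay outside them. The percentages are thus of unlike totals and do not show that the 3'UTR share of the 40 genes is higher. ALDOA, GAPDH and ENO1 had no peak in either list, although each was among the most abundant genes of the set. Of the 9 genes described here at 100 FPKM or more, 5 had a shALKBH5 peak and 6 a shCtrl peak, against 76.0% and 77.5% of all 333 tested genes at that level.

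Peaks of the same gene and strand that overlapped by at least 1 bp, and were each other's longest overlap, were matched between the lists. This gave 44 matched peaks in 22 genes, 23 of them glycolytic and 21 of hypoxia genes. The ratio of fold enrichment (precipitated RNA over input, as the authors computed it) was past 2-fold in 5 of the 44, against 17.6% of 30894 matched peaks of all genes. It was below 1 in 29 and above 1 in 15, with a median log2 ratio of -0.08, against -0.05 for all genes. Taken over the 44, enrichment was not higher in the knockdown list.

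**Figure D4:**
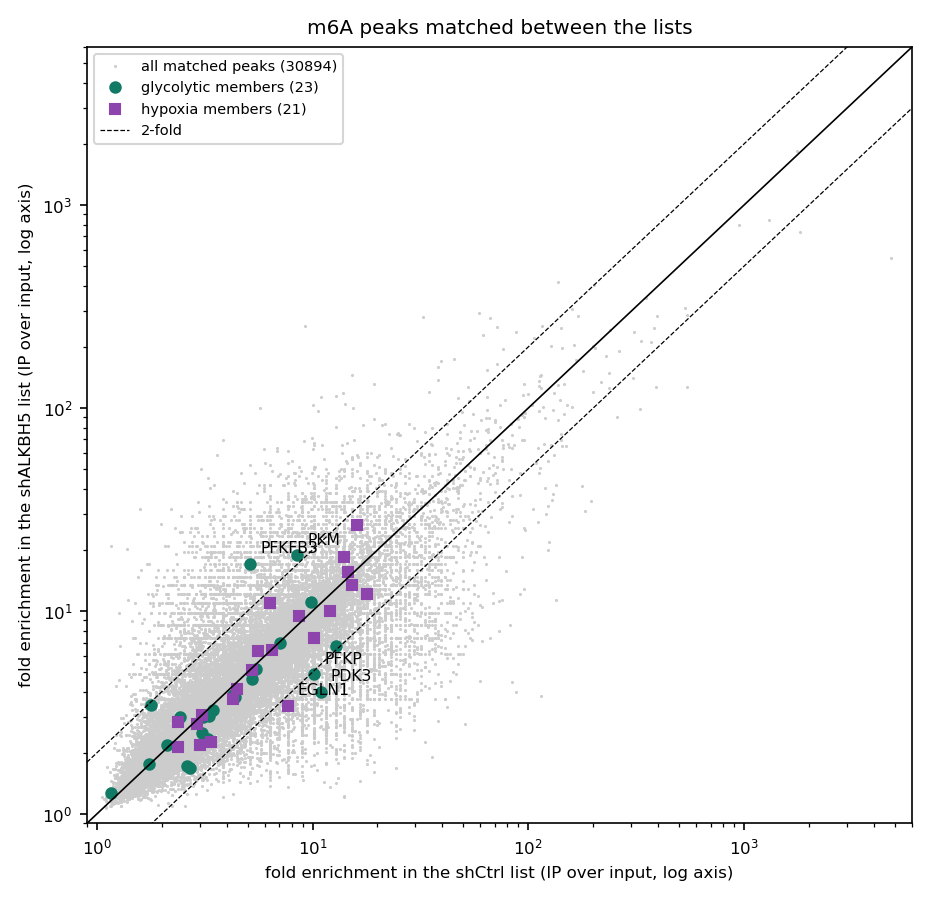
Fold enrichment of matched m6A peaks, precipitated RNA over input, in the shALKBH5 list against the shCtrl list on log axes, for all genes in grey, glycolytic genes as circles and hypoxia genes as squares. The solid line marks equal enrichment and the dashed lines 2-fold, and 5 of the 44 peaks lie outside them.

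Genes with large changes of level were then looked at by their matched peaks. The 3'UTR peak of SLC2A1 (chr1:42926131-42927178) had the same bounds in both lists, with an enrichment of 4.61 in shALKBH5 and 5.22 in shCtrl, and its 5'UTR peak was at 2.34 and 3.27. The 3'UTR peak of DDIT4 began at the same base (chr10:72274608-72275738 in shALKBH5), at 6.45 and 6.49. The longest 3'UTR peak of PFKFB4 (chr3:48519181-48523564 in shALKBH5) was at 3.84 and 4.27, and a shorter one at the 3' end of the gene at 1.72 and 2.61. ALDOC had only a weak shALKBH5 peak, annotated to the 5'UTR, at 1.45. VEGFA had the highest enrichment among the matched peaks, at its 5'UTR (chr6:43770394-43771202 in shALKBH5), with 26.5 against 16.1. The shCtrl peak there was longer and ran to base 43772001. The 3'UTR peak of VEGFA was at 9.49 against 8.70. Its other matched peaks were lower in the knockdown list, at 7.35 against 10.2, 3.67 against 4.28 and 3.06 against 3.09. For the shALKBH5 peak at 7.35, annotated to the coding exons, the direction depended on the match. Its match at 10.2 is annotated to an intron, with a log10 FDR of only -1.91. The same shALKBH5 peak also overlaps an unmatched shCtrl coding exon peak at 2.8 (log10 FDR -11.0), and was higher than that peak. NDRG1 had no matched peak. HIF1A had a matched peak annotated to the coding exons, at 2.77 and 2.92.

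The matched peaks past 2-fold were named after their values were seen. At the 5' end of PKM (chr15:72231163-72231822 in shALKBH5) the enrichment was 18.8 in shALKBH5 and 8.51 in shCtrl, while its 3'UTR peak (chr15:72199029-72199329) stayed at 3.24 and 3.44. The authors' log10 FDR, a score, was -11.6 and -7.99 at that 5' end, much weaker than the infinite values of the 3'UTR peak. At the 3' end of PFKFB3 (chr10:6254404-6254644 in shALKBH5) the enrichment was 17.1 against 5.11, where the shCtrl peak did not reach an FDR of 0.01. The other 3 were lower in the knockdown list, each with a limit. In the 3'UTR of PDK3, a shALKBH5 peak at 4.00 was matched to a much longer shCtrl peak at 10.9, which also overlaps a shALKBH5 peak at 8.57, and a further shALKBH5 peak without a match was at 17.1. At the 3' end of PFKP the values were 4.90 against 10.2, and neither peak reached an FDR of 0.01. Its other matched 3'UTR peak, which did in both lists, was at 1.68 and 2.70. In EGLN1 they were 3.42 against 7.66, for peaks of unequal bounds that run past the 5' start of the gene as listed, while its other matched peak, with the same bounds in both lists, was at 5.14 and 5.25. The authors' table of peaks that differ between the groups, used here for positions only, lists 14 peaks in 13 of the 40 genes, of 6513 in all. Of the 37 genes tested, 13 are in that table, against 32.7% of all genes tested. They lie in SLC2A1, GPI, PFKM, PFKP, PGK1, PKM, PFKFB3, PFKFB4, VEGFA, EGLN1, ADM, DDIT4 and KDM3A.

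Pathways that connect to glycolysis and HIF were followed with lists of further genes. Of 22 other hexose transporters and glycolytic isozymes, 18 were listed and 8 tested, of which 6 rose. Among all genes tested, 34.7% rose. All 8 had a log2 fold change above 0. This held for the tested genes only. Below the filter, LDHAL6B, SLC2A10 and SLC2A4 were lower in every knockdown library than in every control. Their means were 0.229, 0.271 and 0.0355 FPKM in shALKBH5 against 0.736, 0.486 and 0.0581 FPKM in shCtrl. The groups of the other genes below the filter overlapped. Among the tested genes besides HKDC1, SLC2A13, a proton-coupled inositol transporter, had 1.30, 1.15 and 1.35 FPKM in the shALKBH5 libraries and 0.300, 0.383 and 0.295 FPKM in the controls. It rose by 1.68, or by 0.77 with a pseudocount of 1, and no library of the knockdown overlapped the controls. With a control mean of 0.326 FPKM, it passed the filter only through the knockdown, so its rise does not bear on the direction of the list. ENO3, the muscle enolase, and SLC2A6 rose by 0.75 and 0.51. Of the 6 genes of lactate export, 4 were tested. SLC16A3 (MCT4), a lactate exporter that HIF induces, rose by 0.54, and BSG, the chaperone of such exporters, fell by 0.50. TIGAR, a phosphatase that lowers fructose 2,6-bisphosphate, rose by 0.55, and it was 1 of 2 tested genes in a list of 5 such switches, in which 1 rose and 1 fell.

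Of 13 genes for pyruvate entry into mitochondria and its use there, all tested, 4 fell and 3 rose. Among all genes tested, 26.2% fell and 34.7% rose. PDP1, a phosphatase that activates pyruvate dehydrogenase, had 5.93, 5.77 and 5.18 FPKM in the shALKBH5 libraries and 14.4, 19.2 and 18.4 FPKM in the controls. PDP2, the other such phosphatase, had 6.56, 6.50 and 5.99 FPKM against 2.55, 3.36 and 3.17 FPKM. Each separated the groups fully, in opposite directions, with log2 fold changes of -1.60 (adjusted p 2.11e-05) and 1.05 (adjusted p 0.000116). The 5 subunits of the pyruvate dehydrogenase complex in this list differed. DLAT and PDHB fell by 0.97 and 0.74, PDHX, named after its values were seen, rose by 0.53 (adjusted p 0.00139), and PDHA1 and DLD did not pass.

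Of 14 genes of oxygen sensing, 13 were listed and tested, of which 4 rose and 2 fell. Among all genes tested, 34.7% rose and 26.2% fell. VHL, the ubiquitin ligase subunit that recognises hydroxylated HIF alpha, had 16.8, 16.8 and 16.9 FPKM in the shALKBH5 libraries and 10.6, 10.5 and 10.7 FPKM in the controls. HIF1AN (FIH), which blocks the HIF activation domain, had 16.4, 16.9 and 16.8 FPKM against 11.7, 10.8 and 11.4 FPKM. Both were higher in every knockdown library, by 0.67 (adjusted p 9.32e-06) and 0.56 (adjusted p 4.76e-05). CITED2, a HIF target that competes with HIF for its coactivators, had 7.48, 6.60 and 8.12 FPKM against 14.7, 14.7 and 15.5 FPKM and fell by 1.01 (adjusted p 3.3e-05). CUL2, the cullin of the VHL ligase, fell by 0.43 (adjusted p 0.031), and by 0.28 with a pseudocount of 1. Its call ended without shALKBH5 2, shALKBH5 3, shCtrl 1 or shCtrl 2, at adjusted p-values of 0.0943, 0.0727, 0.0588 and 0.0668, and with no filter (0.0763) or the replicate block (0.0594) (0.0117 to 0.0943 over the alternatives).

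Of 39 other hypoxia-responsive genes, 38 were listed and 30 tested, of which 13 fell and 10 rose. Among all genes tested, 26.2% fell and 34.7% rose. The median log2 fold change of the list was -0.16, against 0.09 over all genes. LOXL2, a lysyl oxidase that crosslinks collagen, had 11.7, 12.2 and 11.6 FPKM in the shALKBH5 libraries and 58.7, 53.9 and 54.4 FPKM in the controls. STC1, a secreted glycoprotein, had 6.24, 6.77 and 7.28 FPKM against 1.20, 1.71 and 1.40 FPKM. LOXL2 was low and STC1 was high in every knockdown library, with log2 fold changes of -2.22 (adjusted p 2.26e-07) and 2.17 (adjusted p 8.97e-06). CCNG2, an unconventional cyclin, fell by 1.56, or by 0.70 with a pseudocount of 1. With a knockdown mean of 0.325 FPKM, it passed the filter only through the controls. Both this wider list and the HIF targets above held changes of either sign, as did the genes tested as a whole.

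**Figure D5:**
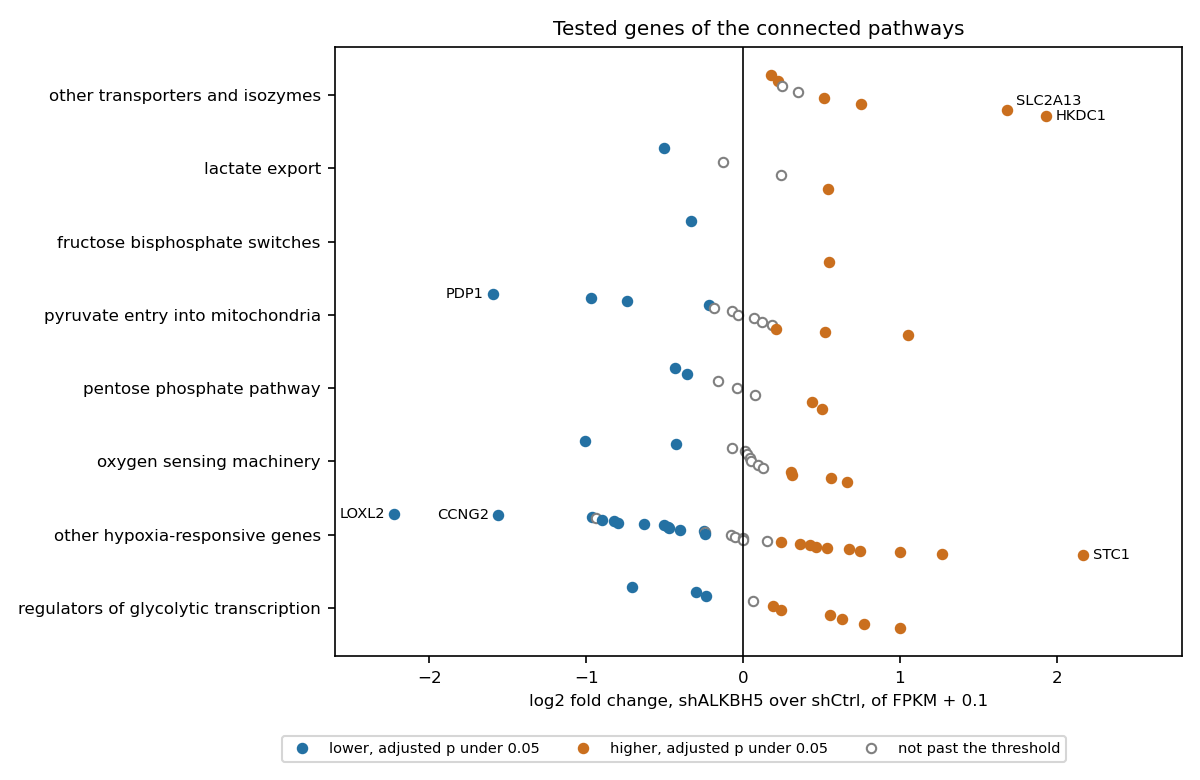
Log2 fold change of FPKM + 0.1, shALKBH5 over shCtrl, for each tested gene of 8 lists of connected pathways, blue where the gene fell, orange where it rose and open where it did not pass. Tested genes among the other transporters and isozymes that passed lie right of 0, and the other hypoxia-responsive genes run from LOXL2 at -2.22 to STC1 at 2.17.

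The p-values rest on 3 libraries a group, and neither protein levels nor glycolytic rates were measured in these libraries. The calls of HK1, TPI1, ENO2, LDHA, BNIP3L and ANKRD37 depended on single libraries and on settings of the analysis, as given beside each.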

How the data were processed

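Input RNA of 3 shALKBH5 and 3 shCtrl libraries of A375 cells was compared, and m6A peaks were described from 1 list per group. Expression was deposited by the authors in FPKM, with 1 column per library. The authors' peak lists hold a fold enrichment, which is a ratio of IP over input, and a log10 p and log10 FDR that are treated as a score because some are infinite. The authors deposited in the table of differing peaks positions, which were used, and other columns (log2 fold change, p-value, FDR), which were not used. The authors' expression table also holds a fold change, its log2, a p-value and a q-value, which were not used. The study's methods name an R package for count data as the tool that quantified and compared transcripts. The aligner, the step that made FPKM, the peak caller and the pooling of replicates are not given in the sources used here. The submitters' notes name the mouse build mm10, but the gene coordinates overlap those of the same symbols in RefSeq GRCh38.p14 for 40 of the 40 members and 99.9% of 21699 genes. Peak starts were changed to count from 1.

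Genes that averaged 0.5 FPKM or more were tested on log2(FPKM + 0.1) by lmFit and eBayes with a trend (limma 3.58.1, R 4.3.3), two-sided, with Benjamini-Hochberg adjustment over 12985 genes and no block. Python 3.11.15, numpy 2.4.6, pandas 2.3.3 and matplotlib 3.10.9 were used for the rest. Replicate numbers are not stated to pair libraries. After removal of group means, libraries of the same number correlated at 0.0181, -0.0462 and 0.0591 across genes, which are not independent replicates. Named genes are the 40 members, ALKBH5 and, from each list of connected pathways or markers, at most 4 genes past the threshold with the largest change and at least 1 FPKM in the higher group. Of the genes that this rule gives, 1 is left out of the text. All further names were picked once their values had been seen. The members and lists were chosen with earlier results of these data known. Printed upstream sequences are those of members with 1 RefSeq start, the 2 that rose and the 2 that fell by the largest amount, outside chromosome 8, with at least 150 bases outside the authors' gene.

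The alternatives comprised a pseudocount of 1 or 0.01, removing the filter or raising it to 1 FPKM, median ratio scaling, the replicate number as a block, no trend, leaving out each library, a reciprocal peak overlap of 50%, peaks that reach 2 in fold enrichment and 0.01 in FDR in both lists, and 1.5-fold. IP libraries were not analysed one by one here.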

Additional observations from a re-analysis of the deposited data

How the results depend on the processing

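Of the 37 members tested, 26 kept direction and side of the threshold under all 13 alternatives, and 11 (HK1, GPI, TPI1, ENO2, LDHA, PDK1, HIF1A, BNIP3L, P4HA1, ANKRD37 and KDM3A) did not. Over all members and alternatives, 439 of 480 values kept both, 35 no longer passed, 4 newly passed and 2 changed sign. The changes of sign were those of P4HA1, which ran from -0.134 to 0.073 with each library left out (0.057 without shALKBH5 3).

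A pseudocount of 1 moved the median log2 fold change of the hypoxia genes to -0.17. With no filter this median was -0.14 and 3 hypoxia genes rose. With median ratio scaling the medians were -0.33 for hypoxia and -0.28 for glycolytic genes, and 3 hypoxia genes rose. With each library left out, the hypoxia median ran from -0.26 to -0.13 and the number of hypoxia genes that rose from 3 to 5. A reciprocal overlap of 50% left 3 of 36 matched peaks of members past 2-fold (8.33%, against 14.2% for all genes), and a threshold of 1.5-fold gave 11 of 44 (25.0%, against 33.5%). With peaks that reach 2 in fold enrichment and 0.01 in FDR in both lists, 5 of 34 were past 2-fold (14.7%, against 16.6%). The peaks past 2-fold in PFKFB3 and PFKP did not meet that limit. The causes were not tested.

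With the replicate block, 13 glycolytic genes fell, and HK1 and LDHA no longer passed (adjusted p 0.0668 and 0.0519). For expression, all genes tested, the number past the threshold was 7271 with the replicate block, against 7917 without it.

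The depth of the libraries is unknown, so how far low counts limit the genes under 1 FPKM, such as PDK1, cannot be given. Peaks have no replicates. With 3 libraries a group, no search for outlying libraries was made.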

Other observations

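The pentose phosphate pathway branches from glucose 6-phosphate and makes NADPH and ribose. Of its 8 genes, 7 were tested, of which 2 fell and 2 rose, where 26.2% of all genes tested fell and 34.7% rose. TALDO1, the transaldolase, had 43.1, 43.5 and 44.5 FPKM in the shALKBH5 libraries and 61.3, 55.9 and 60.5 FPKM in the controls, and fell by 0.44 on the log2 scale. PGD, which makes NADPH, had 61.8, 61.6 and 60.5 FPKM against 78.7, 75.0 and 82.1 FPKM, and fell by 0.36. RPE and RPIA, which interconvert pentose phosphates, rose by 0.44 and 0.50. In each of these genes the groups did not overlap.

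Of 11 known activators and repressors of glycolytic transcription, 10 were tested, of which 6 rose and 3 fell. Among all genes tested, 34.7% rose and 26.2% fell. USF1 and USF2, which form a dimer that binds CACGTG, moved in opposite directions. USF1 had 15.7, 15.1 and 15.6 FPKM in the shALKBH5 libraries and 27.5, 24.7 and 23.9 FPKM in the controls, a log2 fold change of -0.71 (limma, adjusted p 4.29e-05). USF2 had 20.6, 19.5 and 21.0 FPKM against 10.7, 10.2 and 9.43 FPKM, a log2 fold change of 1.00 (limma, adjusted p 9.6e-06). Neither gene had overlapping groups. FOXK1, an activator of glycolytic enzymes, rose by 0.77. MITF, the melanocyte regulator, rose by 0.63 (limma, adjusted p 0.0475), or by 0.35 with a pseudocount of 1, with overlapping groups. The call of MITF ended under 8 of 13 alternatives. It ended without shALKBH5 1, shALKBH5 3, shCtrl 1 or shCtrl 3, at limma adjusted p-values of 0.148, 0.118, 0.127 and 0.133 (0.0177 to 0.148 over the alternatives). It also ended with no filter (limma adjusted p 0.126), after median ratio scaling, with the replicate block and without the trend.

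ZNF395, a hypoxia-responsive gene named after its values were seen, had 1.70, 1.77 and 1.68 FPKM in the shALKBH5 libraries and 4.71, 4.77 and 1.70 FPKM in shCtrl 1, 2 and 3. The third control was at the level of the knockdown.

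EGLN3 and CA12 had m6A peaks although neither passed 0.0884 FPKM in any library. The highest EGLN3 peak had an enrichment of 18.4 in the shALKBH5 list and 38.3 in the shCtrl list, but these were not matched to each other. The shALKBH5 peak at 18.4 was matched to a shCtrl peak at 14.0, and the shCtrl peak at 38.3 had no match. The other EGLN3 match was at 12.2 in shALKBH5 and 17.9 in shCtrl, for peaks that are not the same site. The shALKBH5 peak spans 513218 bases and is annotated to the 5'UTR, and the shCtrl peak spans 390 bases in the 3'UTR. SPTSSA, a gene on the same strand named after its values were seen, lies within the longer span at a mean of 3.68 FPKM. Its part in that peak was not tested. CA12 had 3 peaks of up to 20.4 in the shCtrl list and none in the other.

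Of the 40 members, 24 overlap another listed gene, and for 11 that gene is at 1 FPKM or more. ENO2 shares bases with LRRC23 on the same strand, which rose by 0.51, and BNIP3L with PNMA2 on the opposite strand, which fell by 0.89. These genes were named after their values were seen. Processed pseudogenes were listed for 13 members, and the sum of a gene's pseudogenes was at most 5.99% of its own level.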
